A study of Rattus norvegicus with 8 samples.

Results

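Osteopontin (Spp1), the cell surface receptors that bind it and a few small proteins of the mineralized matrix were followed in primary cultures of semicircular canal duct (SCCD) epithelium from neonatal Wistar rats, treated with 100 nM dexamethasone (n = 4) or left untreated (control, n = 4). The list held 9 genes: Spp1, its receptors Cd44, Itgav, Itgb1, Itgb5 and Itgb3, and the matrix proteins Sparc, Mgp and Bglap. It was chosen by gene name, with the differences between dexamethasone and control on these same arrays already known, so the dexamethasone differences of its members are given as descriptions with no p-value, and the number of members called by the fit over all probe sets supports nothing by itself. The probe annotation named 11 probe sets for 7 of the 9 genes, out of 10411 genes named and 15866 probe sets that were not array controls. The annotation gave no named probe set for Itgav and Itgb3, which were not analysed here. Of the 11 probe sets, 10 (6 genes) had a mean signal of at least 100 and entered the fit over 10368 probe sets, and the Bglap probe set did not. No genetic change is named for the animals. The cultures were grown on permeable supports, and 1 array of the A series (RAE 230A) is used from each. The study also names arrays of the B series, which were not analysed here. The time of exposure before RNA extraction and the independence of the cultures were not stated for the arrays, so p-values measure only the spread between these samples.

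Osteopontin is a secreted, phosphorylated and acidic glycoprotein known from bone, where it binds hydroxyapatite and restrains crystal growth. It carries an RGD motif through which it binds integrins of the alpha-v group, and CD44 is a further receptor of it. Epithelia also secrete it, and the mineral of the inner ear is the calcium carbonate of the otoconia in the utricle and saccule.

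The arrays report 1 signal per probe set in arbitrary units, here multiplied so that every array had a 2% trimmed mean of 500. As deposited, that mean was 500.1 on replicates 1 and 2 of both groups, 331.2 and 322.1 on dexamethasone replicates 3 and 4, and 202 and 335.8 on control replicates 3 and 4. A gene was taken as expressed on an array where its signal exceeded the 95th percentile of 65 probe sets of genes of other tissues (silent genes), which was 121.4 to 176.1 on dexamethasone arrays and 129.1 to 177.5 on control arrays. The beta-actin ratio of 3' to 5' signal, a measure of RNA and labelling quality, was 6.17 to 8.07 with dexamethasone and 8.10 to 13.7 in control (p = 0.0286 in a two-sided exact permutation test, which cannot give less with these groups), while the GAPDH ratio was 2.14 to 3.18 with dexamethasone and 2.10 to 3.79 in control (exact permutation test, p = 0.971). All 6 glucocorticoid-induced genes used to check the treatment were higher, among them the kinase Sgk1 (log2 fold change 3.19, adjusted p = 1.09e-06) and the co-chaperone Fkbp5 (2.14, adjusted p = 3.17e-05, limma). All 9 epithelial markers, including Epcam, were above the silent level on all 8 arrays. Of these the keratin Krt18 was lower with dexamethasone (7138 to 7925, against 9507 to 13060 in control; log2 fold change -0.47, adjusted p = 0.03), and Krt8 lay at 7556 to 8691 with dexamethasone and 8705 to 13060 in control (-0.33, adjusted p = 0.197). Markers above the silent level on no array were 3 of 8 for fibroblasts, 6 of 8 for cartilage and bone, 4 of 9 for macrophages and osteoclasts, 3 of 5 for endothelium, 4 of 6 for smooth muscle and pericytes, 1 of 2 for melanocytes, 4 of 5 for neurons and Schwann cells and 2 of 2 for hair cells.

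Spp1 signal was an order of magnitude higher with dexamethasone. The probe set 1367581_a_at gave 4302, 4856, 8671 and 7168 on the 4 dexamethasone arrays and 589.5, 492.4, 502.8 and 316.6 on the 4 control arrays. The groups were far apart, with the lowest dexamethasone array well above the highest control array. Spp1 averaged 6249 ± 2036 with dexamethasone and 475.3 ± 114.4 in control (SD, n = 4 each), a 12.9-fold difference (95% confidence interval 9.10 to 18.4) and a log2 fold change of 3.69 (SE 0.23). Control cultures also expressed Spp1, since its signal exceeded the silent level on 8 of 8 arrays. In a culture of mixed cells, a change in the number of cells of a type and a change of RNA per cell cannot be told apart on these arrays.

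The Spp1 difference was smaller in the arrays of replicates 1 and 2 than in those of replicates 3 and 4. The log2 fold change was 3.09 within replicates 1 and 2 and 4.30 within replicates 3 and 4, the arrays whose deposited scaling differed. The difference between these values was 1.22 (95% interval 0.57 to 1.87). The interaction fit that gave it was added after the data were seen and called 0 of 10368 probe sets. It therefore does not settle whether the Spp1 difference varied between the sets. The dexamethasone arrays of replicates 3 and 4 carried the highest Spp1 signals, and control replicate 4 the lowest. Leaving out each array in turn gave 3.51 to 3.86. Over all 22 alternatives the log2 fold change stayed between 3.09 and 4.30, and it was 3.68 with the beta-actin ratio as a covariate.

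**Figure D1:**
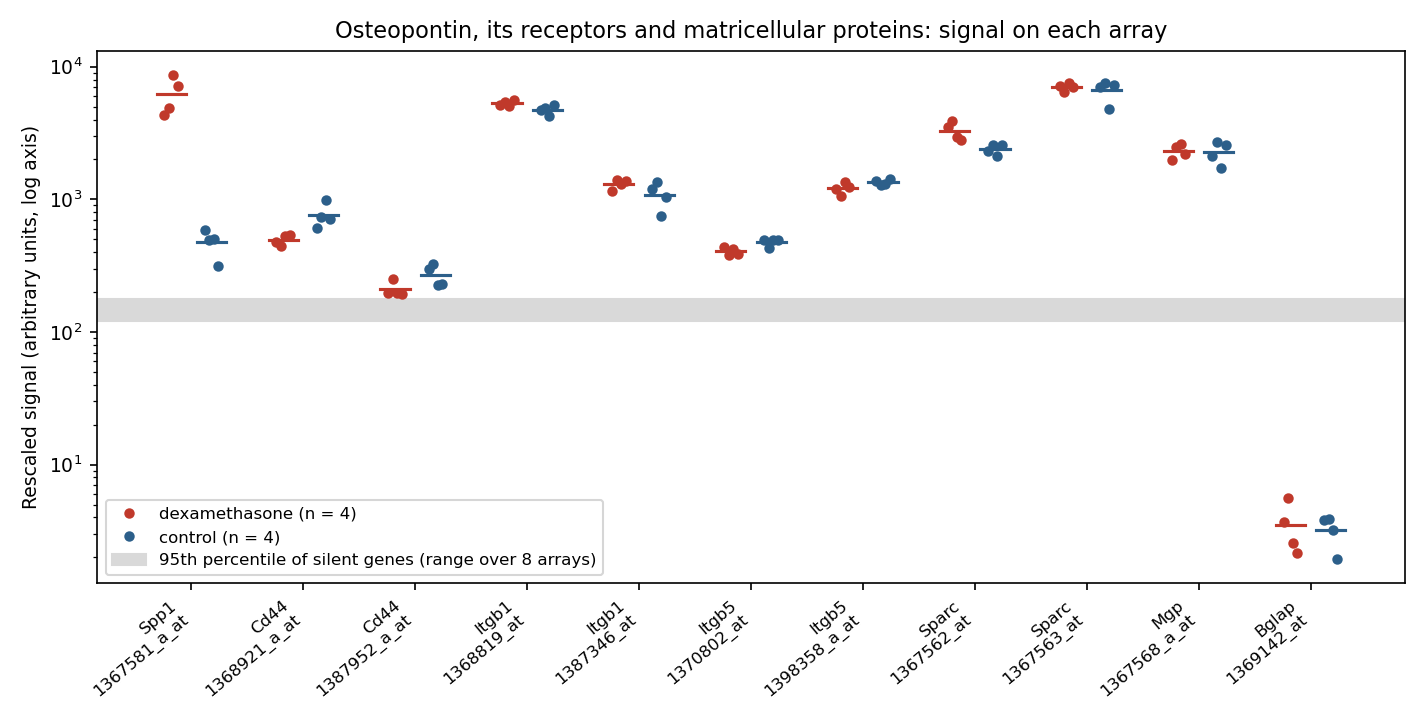
Rescaled signal (vertical log axis, arbitrary units) of the 11 member probe sets on the 4 dexamethasone (red) and 4 control (blue) arrays, with group means as bars and the range of the silent level as a grey band. Spp1 lay at 4302 to 8671 with dexamethasone and 316.6 to 589.5 in control, and Bglap lay below the band on all 8 arrays.

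The start of the rat Spp1 gene is shown because it is the member with the large difference, and that of Bglap because it is the bone matrix gene that stayed at background. Each run has 250 bases before and 50 bases from the RefSeq start site, on the minus strand of GRCr8, read 5' to 3' (Spp1 chr14:5619755-5620054; Bglap chr2:176137269-176137568). Capitals mark, on either strand, the TATA-like letters TATAAA, the related box TTTAAA, the letters TGTGGT bound by RUNX factors, their variant TGCGGT, and AGAACA, the arm of a glucocorticoid response element.
Spp1: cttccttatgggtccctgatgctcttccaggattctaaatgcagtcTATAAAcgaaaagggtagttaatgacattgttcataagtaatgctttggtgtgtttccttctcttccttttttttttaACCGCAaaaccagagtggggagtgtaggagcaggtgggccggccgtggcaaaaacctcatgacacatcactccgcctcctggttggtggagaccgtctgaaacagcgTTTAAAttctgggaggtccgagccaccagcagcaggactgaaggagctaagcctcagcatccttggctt
Bglap: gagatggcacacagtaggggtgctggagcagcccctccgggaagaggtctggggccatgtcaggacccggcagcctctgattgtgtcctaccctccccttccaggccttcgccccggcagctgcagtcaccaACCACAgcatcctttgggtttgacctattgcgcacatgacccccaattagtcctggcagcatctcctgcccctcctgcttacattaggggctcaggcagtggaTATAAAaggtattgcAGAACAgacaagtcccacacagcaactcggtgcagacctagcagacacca

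In the Spp1 window TTTAAA stood 19 bases and TATAAA 204 bases before the start, and the RUNX letters TGCGGT stood on the opposite strand 126 bases before it. RefSeq places the Spp1 gene at chr14:5613569-5620695, so this start lies inside the annotated gene. AGAACA was not in the Spp1 window and was at the start site of Bglap, and it occurred in 20.7% of 33469 rat promoter windows of the same length. The letters TGTGGT occurred in 17.3% of them, TGCGGT in 6.39%, TATAAA in 14.2% and TTTAAA in 13.6%. AGAACA followed by its reverse complement after 3 free bases was in 0.0149% of windows and in none of the 7 members with a window (0 of 7). The windows of Itgb5 (TGCGGT) and Sparc (TGTGGT) also held RUNX letters, on the coding strand 16 bases and on the opposite strand 205 bases before the start. Other letters searched on both strands were AGGTCA (an arm of nuclear receptor elements, 16.2% of windows; Cd44 and Bglap), TGACTCA (AP-1, 4.63%; no member, 0 of 7) and CCAAT (37.5%; Bglap).

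Of the 10 member probe sets tested, 1 was called higher with dexamethasone, that of Spp1, where 1.88% of all probe sets were called higher, and 0 were called lower, where 0.81% were (limma, Benjamini-Hochberg adjusted p below 0.05). The 95% interval lay below 0 for Cd44 probe set 1368921_a_at alone. With the array set as a block, 2 were called higher (Spp1 and Sparc probe set 1367562_at) beside 3.32% of all probe sets, and 1 was called lower (Cd44 probe set 1368921_a_at) beside 2.26%. These were the same 3 probe sets whose groups did not overlap: 2 with every dexamethasone array above every control array, beside 5.57% of all probe sets, and 1 with every dexamethasone array below, beside 5.46%. The member list was made with this contrast known, so nothing is read from these counts. Over all probe sets the fit called 195 higher and 84 lower, 69.9% of calls being higher, and the signals as deposited gave 34 higher and 2 lower, 94.4% higher, with the median log2 fold change of all probe sets moved to 0.14. The median log2 fold change was 0.07 over the 10 member probe sets, of which 6 lay above 0, and -0.02 over all 10368, of which 4762 lay above 0. A log2 fold change beyond 1 in either direction was seen in 1 of 10 member probe sets (10%) and in 1.46% of all.

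**Figure D2:**
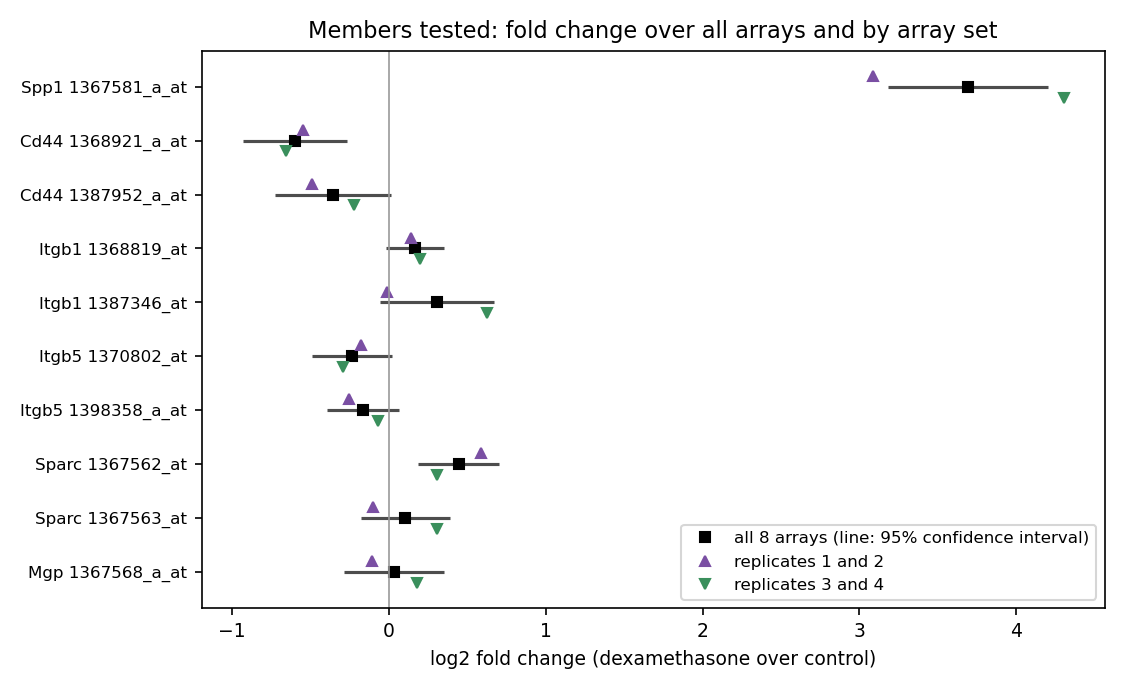
Log2 fold change (dexamethasone over control) of the 10 member probe sets tested, over all 8 arrays with its 95% confidence interval (black) and within replicates 1 and 2 (upward triangles) or 3 and 4 (downward triangles). Spp1 stands at 3.69, and the other 9 lie between -0.60 and 0.44.

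CD44, the hyaluronan receptor that osteopontin also engages, was expressed on 8 of 8 arrays, and neither of its 2 probe sets was called, although the groups were apart on 1 of them. Cd44 probe set 1368921_a_at gave 473.8, 441.8, 527.5 and 537.3 with dexamethasone and 608.1, 737.7, 986.8 and 711.4 in control. All 4 dexamethasone arrays lay below all 4 control arrays, and control replicate 3 was the highest. The means were 495.1 ± 45.2 with dexamethasone and 761 ± 161 in control (SD, n = 4 each), a log2 fold change of -0.60 (SE 0.15, 95% interval -0.93 to -0.27). It was -0.55 within replicates 1 and 2 and -0.65 within replicates 3 and 4, -0.44 on the signals as deposited and -0.34 with the beta-actin ratio as a covariate. Without control replicate 1 it was -0.70, and the probe set was then called. The beta-actin ratio did not overlap between the groups, so the covariate fit cannot fully separate it from dexamethasone. The part of the ratio in this difference was not tested further.

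The other Cd44 probe set, 1387952_a_at, gave 198, 250.1, 197.9 and 192.5 with dexamethasone and 298, 327.5, 225 and 231.4 in control. Its groups overlapped through dexamethasone replicate 2 (log2 fold change -0.36, 95% interval -0.73 to 0.01). Across arrays within groups the 2 Cd44 probe sets tended to run in opposite directions (Pearson r = -0.635 over 8 arrays with group means removed). The arrays share the rescaling, and the fold changes of both probe sets had the same sign.

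Integrin beta 1, the common partner of many alpha subunits, was expressed on 8 of 8 arrays by both of its probe sets, of which 1387346_at varied more among control arrays. Its probe set 1368819_at gave 5116, 5467, 5040 and 5600 with dexamethasone and 4705, 4914, 4217 and 5111 in control, so the groups overlapped (log2 fold change 0.17, 95% interval -0.02 to 0.35). Its other probe set, 1387346_at, gave 1154, 1392, 1317 and 1387 with dexamethasone and 1202, 1354, 744.4 and 1035 in control. Control replicate 3 was the lowest of the 8 on both. For 1387346_at the log2 fold change was 0.31 (95% interval -0.06 to 0.67) over all arrays, -0.01 within replicates 1 and 2 and 0.62 within replicates 3 and 4, and it was -0.13 with the beta-actin ratio as a covariate. The direction of this probe set therefore rested on replicates 3 and 4, while the 2 probe sets varied together within groups (r = 0.708).

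Integrin beta 5, which pairs with alpha-v and binds osteopontin and vitronectin, differed little. Probe set 1370802_at gave 438.2, 377.7, 419 and 386.7 with dexamethasone and 494.8, 428.2, 495.9 and 489.9 in control. Only control replicate 2 fell within the dexamethasone range, and the log2 fold change was -0.24 (95% interval -0.49 to 0.02). Probe set 1398358_a_at gave 1192, 1051, 1345 and 1246 with dexamethasone and 1383, 1294, 1311 and 1413 in control (log2 fold change -0.16, 95% interval -0.40 to 0.07), with overlap of the groups. As linear ratios the intervals ran from 0.712 to 1.01 and from 0.760 to 1.05, so both included no difference.

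SPARC, also called osteonectin, is a collagen-binding matricellular protein, and its 2 probe sets did not give the same picture. Sparc probe set 1367562_at gave 3492, 3871, 2963 and 2796 with dexamethasone and 2323, 2582, 2119 and 2567 in control. Every dexamethasone array was above every control array, and dexamethasone replicate 4 came closest to them. The means were 3280 ± 493 with dexamethasone and 2398 ± 221 in control (SD, n = 4 each), 1.36-fold and 0.44 on the log2 scale (SE 0.12, 95% interval 0.19 to 0.70). It was 0.59 within replicates 1 and 2, 0.30 within replicates 3 and 4, 0.61 on the signals as deposited and 0.35 with the beta-actin ratio as a covariate. Sparc probe set 1367563_at gave 7143, 6453, 7602 and 7090 with dexamethasone and 7026, 7554, 4832 and 7265 in control. Here the groups overlapped, and control replicate 3 alone was low. Its log2 fold change of 0.10 (95% interval -0.18 to 0.39) turned to -0.04 without control replicate 3, to -0.10 within replicates 1 and 2 and to -0.17 with the beta-actin ratio as a covariate. The mean of both probe sets gave 0.27.

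Matrix Gla protein (Mgp), a vitamin K dependent inhibitor of calcification, was expressed on 8 of 8 arrays. It gave 1978, 2480, 2606 and 2181 with dexamethasone and 2110, 2709, 1732 and 2570 in control, with ranges that overlapped almost wholly. The log2 fold change was 0.03 (95% interval -0.29 to 0.35), or 0.819 to 1.28 as a linear ratio. It had no stable sign, being -0.11 within replicates 1 and 2 and -0.09 without control replicate 3. Osteocalcin (Bglap), the Gla protein of osteoblasts, gave 3.70, 5.60, 2.57 and 2.17 with dexamethasone and 3.80, 3.90, 3.22 and 1.94 in control. All 8 values lay under the floor of 16 and far under the silent level, so no fold change is given.

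Markers of cells that make osteopontin elsewhere were read beside Spp1. Of the macrophage and osteoclast markers, 9 of 10 had a probe set, and their summed signal was 1621 to 4839 with dexamethasone and 1392 to 1930 in control. Ptprc (30.9 to 52.7 with dexamethasone, 28.1 to 39.8 in control), Itgam, Cd68 and Ctsk (13.5 to 18.4 with dexamethasone, 9.38 to 16.6 in control) were above the silent level on no array, while Aif1 and Acp5 were above it on all 8. Acp5, the acid phosphatase of osteoclasts, lay at 477.3 to 544.3 with dexamethasone and 547.6 to 616.7 in control, every dexamethasone array being below every control array (log2 fold change -0.18, adjusted p = 0.461), and Csf1r lay at 125.1 to 195.1 with dexamethasone and 132.5 to 196.1 in control. Lyz2, the myeloid lysozyme, gave 3415, 969.3, 48.8 and 78.4 with dexamethasone and 432.8, 351.3, 172.5 and 88.5 in control. Spp1 was highest on dexamethasone replicates 3 and 4, where Lyz2 was lowest within that group. Cd14, the lipopolysaccharide co-receptor, gave 416.8, 379.1, 597 and 781.8 with dexamethasone and 291.1, 338.2, 168.1 and 313.6 in control (log2 fold change 0.96, adjusted p = 0.0809, limma). Every dexamethasone array lay above every control array, and Cd14, like Spp1, was highest on dexamethasone replicates 3 and 4. The part of Cd14 in the Spp1 difference was not tested.

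Of the cartilage and bone markers, 8 of 14 had a probe set, with a summed signal of 2588 to 4094 with dexamethasone and 1420 to 3720 in control. Only 2 of the 8 were above the silent level on any array, the cartilage collagens Col2a1 (997.1 to 2325 with dexamethasone, 670.1 to 2126 in control) and Col11a1 (1384 to 1728 with dexamethasone, 412.7 to 1236 in control), each on all 8. The bone markers Ibsp (3.47 to 13.7 with dexamethasone, 4.77 to 10.4 in control), Alpl (4.35 to 7.40 with dexamethasone, 3.87 to 7.60 in control) and Phex were above that level on no array. Col11a1 was higher on every dexamethasone array than on any control array, as Spp1 was, and its part in the Spp1 difference was not tested. The summed fibroblast signal, 3706 to 6118 with dexamethasone and 5118 to 6284 in control, did not separate the groups. The summed signal of 5 endothelial markers did, at 2731 to 3269 with dexamethasone and 931.3 to 1178 in control. Most of it was the signal of the VEGF receptor Kdr, at 2528 to 3028 with dexamethasone and 491.6 to 843.7 in control (log2 fold change 2.00, adjusted p = 2.98e-05, limma). Flt1, a further VEGF receptor, went the other way, at 19.3 to 85.8 with dexamethasone and 168.4 to 197.3 in control (-1.96, adjusted p = 0.02, limma). This Flt1 signal was above the silent level on 0 of 4 dexamethasone and 3 of 4 control arrays. The size of its fold change therefore rests on background values. Another Flt1 probe set was also lower but was not called (-0.52, adjusted p = 0.427, limma). The defining markers Pecam1, Tie1 and Vwf were above the silent level on no array. The part of Kdr, Flt1, Acp5, Krt8 and Krt18 in the Spp1 difference was not tested.

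**Figure D3:**
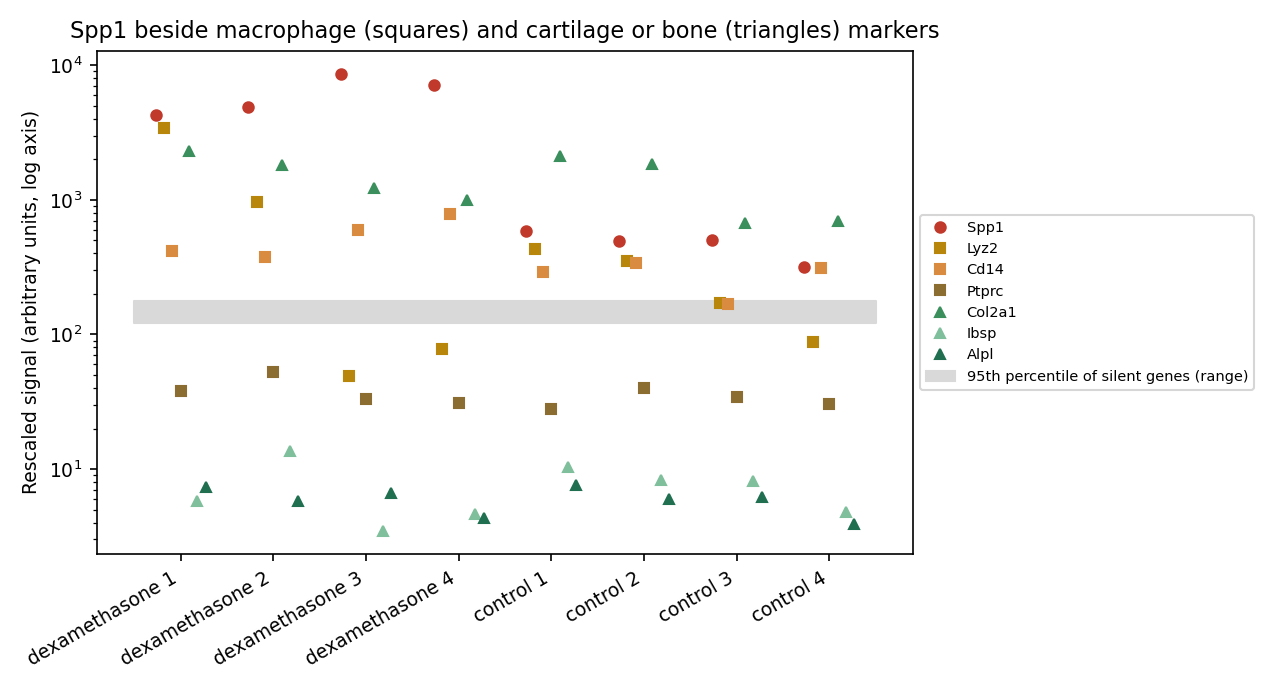
Rescaled signal (vertical log axis, arbitrary units) on each dexamethasone and control array for Spp1 (circles), 3 macrophage markers (squares) and 3 cartilage or bone markers (triangles), with the range of the silent level in grey. Lyz2 ran from 48.8 to 3415 among dexamethasone arrays and was lowest where Spp1 was highest. Cd14 lay at 379.1 to 781.8 with dexamethasone and at 168.1 to 338.2 in control, and like Spp1 was highest on dexamethasone replicates 3 and 4. Ptprc, Ibsp and Alpl stayed below the grey band, and Col2a1 lay above it on all 8 arrays.

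Genes that act with osteopontin were read from 10 lists made by function. They held 152 genes, of which 114 had a probe set and 81 were tested, with 7 higher and 1 lower (limma), beside 1.88% higher and 0.81% lower over all probe sets, and a median log2 fold change of -0.04, beside -0.02. The lists were made with earlier results known, so these counts are not independent evidence. The genes of enzymes that cut, crosslink or modify osteopontin numbered 16, of which 7 were tested and 2 were higher (median 0.06). Transglutaminase 2 (Tgm2), which crosslinks osteopontin and other matrix proteins, gave 2935, 3414, 3029 and 2583 with dexamethasone and 1191, 1115, 1334 and 1783 in control. The groups did not overlap, and the log2 fold change was 1.16 (SE 0.15, adjusted p = 0.00128). The lysosomal protease cathepsin D (Ctsd) averaged 8341 ± 590 with dexamethasone and 4794 ± 521 in control (SD, n = 4 each), a log2 fold change of 0.80 (adjusted p = 0.000655, limma). Matrilysin (Mmp7), a protease that cuts osteopontin, fell just under the filter with a mean of 98.8 and was singled out after its values were seen. Mmp7 lay at 143.1 to 223.4 with dexamethasone, above the silent level on 4 of 4 arrays, and at 7.60 to 15.6 in control, above it on 0 of 4. Taken against the silent level of the control arrays it was at least 1.16-fold higher. All 4 control values lay under the floor of 16, which removed their spread in the fit, so no p-value is given.

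Among other matricellular and RGD proteins, 16 of 32 genes were tested and 2 were higher (median 0.04). Galectin 3 (Lgals3), a galactoside-binding lectin, averaged 7292 ± 406 with dexamethasone and 4906 ± 391.6 in control (SD, n = 4 each; log2 fold change 0.57, adjusted p = 0.00285). Tgfbi, an RGD protein of collagen-rich matrix, averaged 233.2 ± 15.8 with dexamethasone and 143.6 ± 20.8 in control (log2 fold change 0.71, adjusted p = 0.0403, limma). This call was lost in 13 of 20 alternatives. Tgfbi was above the silent level on 4 of 4 dexamethasone and 1 of 4 control arrays. The size of its fold change therefore rests partly on background values. The tenascin Tnc, Ccn2 and fibronectin Fn1 had log2 fold changes of -0.27, 0.02 and -0.0019 and did not pass (adjusted p = 0.222, 0.928 and 0.993). None of the other small integrin-binding glycoproteins of the osteopontin family was tested (3 of 4 had a probe set), and Ibsp, Dspp and Mepe were above the silent level on no array.

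No integrin subunit outside the member list passed the test. The alpha subunits gave 5 tested of 17 genes, 0 called and 0 at an unadjusted p below 0.05 (limma, median -0.19). The lowest p was that of the laminin receptor subunit Itga3 (log2 fold change -0.23, adjusted p = 0.361), followed by Itgae (-0.29, adjusted p = 0.461). The beta subunits gave 2 tested of 5, 0 called and 0 at an unadjusted p below 0.05: Itgb4 of the hemidesmosome (-0.15, adjusted p = 0.736) and Itgb7 (-0.25, adjusted p = 0.779). Of the cytoplasmic partners of integrins, 18 of 22 were tested and 2 were higher (median -0.03). The membrane scaffold caveolin 1 (Cav1) averaged 5224 ± 382 with dexamethasone and 3352 ± 137 in control (log2 fold change 0.64, adjusted p = 0.00148). The focal adhesion adaptor paxillin (Pxn) averaged 4206 ± 365 with dexamethasone and 2443 ± 314 in control (0.79, adjusted p = 0.00212).

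Of the genes of CD44 partners and hyaluronan, 13 of 20 were tested and 1 was lower (median -0.14). Versican (Vcan), a large proteoglycan that binds hyaluronan, gave 211.7, 254.7, 435.9 and 256.9 with dexamethasone and 708.4, 743.2, 522.3 and 899 in control. Dexamethasone replicate 3 was the highest of its group and control replicate 3 the lowest of the controls, without overlap. For this probe set the log2 fold change was -1.34 (SE 0.22, adjusted p = 0.00724, limma). Another Vcan probe set was also lower, by less, and was not called (-0.57, adjusted p = 0.184, limma). The call of Vcan therefore rests on the probe set with the highest mean. The ERM proteins ezrin (Ezr, 0.11, adjusted p = 0.678) and moesin (Msn, -0.44, adjusted p = 0.102), which tie CD44 to actin, did not pass.

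Of the Gla proteins and the vitamin K cycle, 5 of 12 were tested and 1 was higher (median -0.13). Protein S (Pros1), a vitamin K dependent anticoagulant, averaged 1489 ± 163 with dexamethasone and 892.5 ± 199 in control (log2 fold change 0.76, adjusted p = 0.0247), a call lost in 11 of 21 alternatives. Of the mineral inhibitors and phosphate handling genes, 5 of 7 were tested and 0 were called (limma), with 2 at an unadjusted p below 0.05 (median -0.21). These were the phosphate transporter Slc20a2 (0.63, adjusted p = 0.0522), whose groups did not overlap, and the pyrophosphate exporter Ankh (-0.40, adjusted p = 0.268). Of the regulators of bone matrix genes, 10 of 17 were tested and 0 were called (limma), with 1 at an unadjusted p below 0.05, the transcription factor Ets1 (0.48, adjusted p = 0.198; median -0.06). The log2 fold change was -0.20 for the glucocorticoid receptor Nr3c1 (adjusted p = 0.533) and -0.0050 for Runx1 (adjusted p = 0.991). With the beta-actin ratio as a covariate, Lgals3, Tgfbi, Pros1, Vcan and Pxn lost their calls at log2 fold changes of 0.49, 0.61, 0.60, -1.48 and 0.58 (adjusted p = 0.0811, 0.388, 0.372, 0.0833 and 0.0733, limma). Tgm2, Ctsd and Cav1 kept theirs. The ratio did not overlap between the groups, so the covariate fit cannot fully separate it from dexamethasone. Nothing is read from which calls were lost or kept. On the signals as deposited, and in replicates 3 and 4 alone, 0 list genes were called in either direction (limma).

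**Figure D4:**
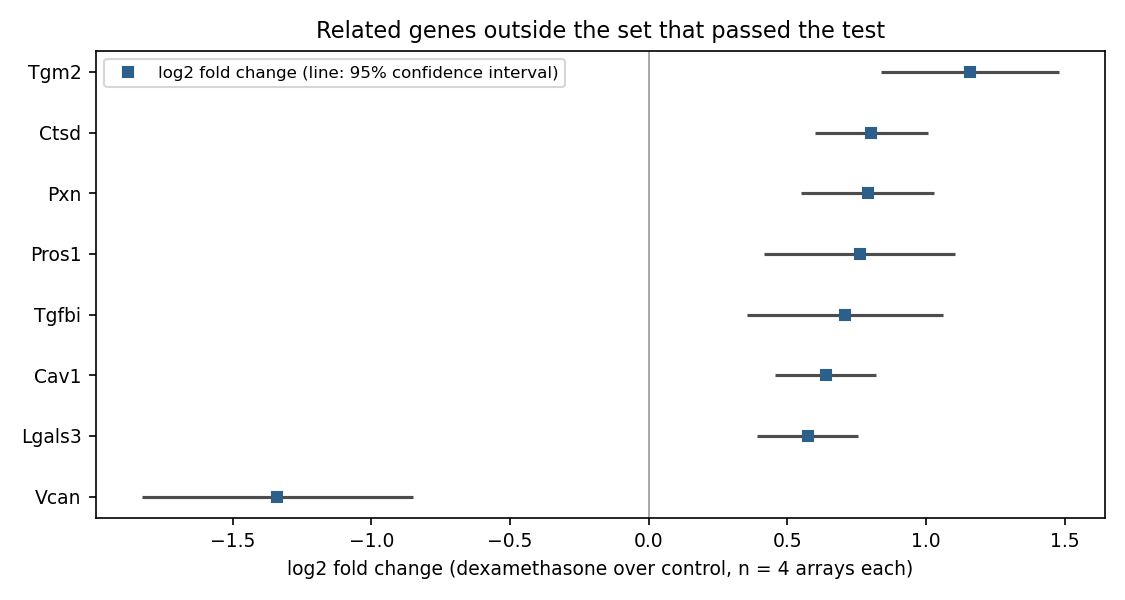
Log2 fold change (dexamethasone over control, horizontal axis) of the 8 listed genes outside the member list that passed the test, with 95% confidence intervals. Each gene is shown by its probe set with the highest mean. Tgm2 stands highest at 1.16 and Vcan lowest at -1.34.

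The probe sets whose log2 signal ran most like that of Spp1 over the 8 arrays were Kiaa0040 (r = 0.993), Crispld2 on 2 probe sets (0.992 and 0.99), Sult1a1 (0.989) and Ogn (0.989). All 5 also separated the groups, which follows from picking them by likeness to Spp1 over both groups. Osteoglycin (Ogn), a small leucine-rich proteoglycan found in bone, averaged 633.3 ± 86.5 with dexamethasone and 207.4 ± 23.3 in control (log2 fold change 1.61, adjusted p = 7.03e-05, limma). With group means removed, the closest were Faf1 (r = 0.92), Entpd2 (0.918), C19h19orf53 (0.888), Ulk2 (0.883) and Fam98c (0.882), which were not called between the groups. On the same measure the tested member probe sets other than Spp1 ran from -0.719 (Sparc probe set 1367562_at) to 0.443 (Itgb5 probe set 1398358_a_at). The 5 were picked as the highest of all probe sets, and the 8 arrays share their rescaling.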

How the data were processed

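Total RNA of the 8 cultures was amplified and labelled by the authors in 2 rounds of in vitro transcription, and the A series array of each sample (RAE 230A) is used here. Arrays of the B series were not analysed here. The deposited values are signal intensities on a linear scale, 1 per probe set and array, made with the Affymetrix statistical algorithms. Per the labels all probe sets were scaled to a target of 500, which held for replicates 1 and 2 only, so each array was multiplied to a 2% trimmed mean of 500. The software version was not given in the sources used here, and the study's detection calls were not used. The table held 15923 probe sets, of which 57 were controls.

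Low signals were raised to a floor of 16 before taking log2. Probe sets with a mean of at least 100 were tested with limma 3.58.1 in R 4.3.3 (lmFit, eBayes with a mean-variance trend, two-sided, Benjamini-Hochberg at 0.05). Members and lists were chosen with earlier results of these data known. All member probe sets are named, and for list genes the probe set with the highest mean. From each list the text names the genes past the threshold (at most 5), or the 2 of lowest p, and a few others chosen for their role after their values were seen. Current symbols came from the platform annotation (1 symbol for 12783 probe sets, several for 312, none for 2771) and RefSeq GRCr8. The fit was tested on simulated data. The number of arrays limits the precision. Alternatives changed scaling, filter, floor, trend, blocks, covariate and arrays. The interaction fit and the fold of Mmp7 were added after the data were seen.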

Additional observations from a re-analysis of the deposited data

Results flagged for a closer look

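In 4 of 62 groups of 4 arrays tested among members and named list genes, 1 array stood apart from the other 3 by Dixon's test at 95%, and chance alone gives about 1 in 20. Cd44 probe set 1387952_a_at was high on dexamethasone replicate 2 (250.1, the others 192.5 to 198). Itgb5 probe set 1370802_at was low on control replicate 2 (428.2, the others 489.9 to 495.9). Sparc probe set 1367563_at was low on control replicate 3 (4832, the others 7026 to 7554), the array with the lowest deposited trimmed mean (202) and the highest beta-actin ratio (13.7). The glucocorticoid receptor Nr3c1 was high on dexamethasone replicate 2 (749.5, the others 644.8 to 661.6).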

How the results depend on the processing

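The log2 fold change of Spp1 was 3.09 to 4.30 over the alternatives. The main counts of probe sets were 195 higher and 84 lower, those of member probe sets 1 higher and 0 lower, and those of list genes 7 higher and 1 lower. Signals as deposited gave 34 higher and 2 lower over all probe sets, and 0 higher and 0 lower among list genes. No filter gave 81 higher and 21 lower, with 0 lower among list genes. The array set as a block gave 344 and 234, with 2 and 1 among members and 3 lower among list genes. Replicates 1 and 2 alone gave 154 lower, with 2 higher among members and 2 lower among list genes, and replicates 3 and 4 alone gave 19 higher and 2 lower, with 0 and 0 among list genes. The beta-actin ratio as a covariate, which did not overlap between the groups, gave 57 higher and 8 lower, with 3 and 0 among list genes. Leaving out each array in turn gave 128 to 192 higher and 49 to 83 lower over all probe sets and 0 to 1 lower among members, and the 1 was Cd44 without control replicate 1.

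Same-numbered arrays of the groups deviated together with r = 0.352, 0.252, 0.0347 and 0.406 for numbers 1 to 4, and 4 of 8 arrays correlated best with their own number. These values, all above 0, do not settle whether the numbers pair the cultures. The paper describes paired cultures for its electrical measurements, and pairing was not stated for the arrays. The main fit therefore used no pairing. With the replicate block the counts were 308 higher and 176 lower, with 2 and 1 among members (Sparc probe set 1367562_at and Cd44 probe set 1368921_a_at added) and 3 lower among list genes.

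Small fold changes reversed. Itgb1 probe set 1387346_at was -0.0099 in replicates 1 and 2 and -0.13 with the covariate. Sparc probe set 1367563_at was -0.10 and -0.17 in the same settings and ran from -0.044 (without control replicate 3) to 0.17 with arrays left out. Mgp was -0.11 in replicates 1 and 2, -0.20 with the covariate, and from -0.092 (without control replicate 3) to 0.12 with arrays left out, also below 0 without dexamethasone replicate 2 (-0.0039) or 3 (-0.028). Itgb4 was 0.012 on deposited signals and 0.19 in replicates 1 and 2, and Itgb7 was 0.41 with the covariate. The causes were not tested.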
